A study of Mus musculus with 26 samples.

Results

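The naive pluripotency transcription factors are described here by 10 genes chosen by name. They are Klf2, Klf4, Klf5, Tfcp2l1, Esrrb, Tbx3, Nanog, Zfp42 (the gene of Rex1), Gbx2 and Prdm14, of 21938 protein-coding genes in the annotation. The cells were E14 mouse embryonic stem cells (mESC), an established line. All cells grew for 48 h in medium with leukemia inhibitory factor (LIF). For the last 4 h they received LIF (mESC+) or 1 µM retinoic acid (RA) (mESC-). LIF was withdrawn when RA was added, so RA and the loss of LIF cannot be told apart in these data. Processed RNA-seq, ATAC-seq and enhancer data bear on the genes. RNA-seq had 3 libraries per state, ATAC-seq had 1 library per state, and 327 dynamic enhancer regions came from ChIP-seq with 1 library per mark and state.

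Naive pluripotency is the state of the early epiblast, which mouse embryonic stem cells keep in culture as long as LIF signals through STAT3. Klf4, Klf5, Tfcp2l1 and Gbx2 respond to this signal, whereas Esrrb, Nanog and Tbx3 also lie under other inputs. The factors bind each other's enhancers and sustain one another together with Oct4 and Sox2, and the network is taken down as cells leave the naive state. RA acts through nuclear receptors, heterodimers of RAR and RXR, that bind pairs of hexamers on DNA.

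Within 100 kb of the 10 genes, the 1 dynamic enhancer region that was found gave the higher enhancer probability in mESC-, and it lay upstream of Tbx3. None of the 10 genes had a region whose probability was lower in mESC-. Of the 10 genes, 9 had an ATAC-seq peak at the annotated start in both states, and the share of peaks without a counterpart in the other state was close to the share over all peaks. The RNA-seq values used here were means over both states, so no direction of change in transcript level is given for any of the factors.

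The ATAC-seq lists held 163484 peaks in mESC+ and 141465 peaks in mESC-. Read totals per library are unknown, and without replicate libraries no ATAC-seq difference could be tested. The fold enrichment of a peak is its signal over the local background in its own library, so peaks were compared between states by their percentile within their own list. A cell population that is less open at a site and one in which fewer cells are open there cannot be told apart. Promoter peaks did not distinguish cell types. All 5 stem cell markers had one in both lists, as did 4 of 5 primitive endoderm markers, 4 of 5 fibroblast or feeder markers and 5 of 5 neural markers.

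The RNA-seq table listed 2189 genes, and 6 of the 10 factors were among them. Klf4, Klf5, Tbx3, Zfp42, Gbx2 and Prdm14 were listed, whereas Klf2, Tfcp2l1, Esrrb and Nanog were not, which says nothing on their level or change. The table gives for each gene the authors' mean of normalized counts over all 6 libraries, with no value per library. Zfp42, a zinc finger protein that serves as a classic marker of the naive state, had the highest mean with 9813 normalized counts per kb of exons, at the 99.8th percentile of the listed genes. The 2 listed Kruppel-like factors, zinc finger activators that bind GC-rich promoters, came next. Klf4 stood at 934 and Klf5 at 663 normalized counts per kb of exons. Gbx2, a homeobox factor, had a mean of 521 normalized counts per kb of exons. Tbx3, a T-box factor, had 389, and Prdm14, which represses lineage genes and helps to keep DNA methylation low, had 288. All 6 lay above the median of the listed genes, 138 normalized counts per kb of exons. These ranks do not place them among genes that were not listed. Without a spread, neighbours in this order cannot be separated.

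The region at Tbx3 was located at chr5:119628701-119630000 (GRCm38), 1300 bp long, with its center 41.3 kb upstream of the Tbx3 start. The annotation places it in introns of a lincRNA, Gm16063, and of the antisense transcript Tbx3os1, and Tbx3 has the nearest protein-coding start. Its enhancer probability, a fraction between 0 and 1 that a random forest derives from H3K4me1, H3K4me3 and H3K27ac, was 0.0462 in mESC+ and 0.92 in mESC-. For comparison, 2.56% of all protein-coding genes had a region with the higher probability in mESC- within 100 kb, and 2.11% had one with the higher probability in mESC+. With 10 genes, 1 and 0 are too few to set against these shares.

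An ATAC-seq peak was called there in one state alone. The mESC+ list held 0 peaks in the region. The mESC- list held 1 peak, chr5:119628709-119628973, with a fold enrichment of 6.98 at the 54.1st percentile of its list. It began 8 bp inside the region and had the highest fold enrichment of all mESC- peaks near the 10 genes that lacked a counterpart in mESC+. Among all regions with the higher probability in mESC-, 18 of 141 had a peak in the mESC- list alone. The nearest other peak was present in both lists, 4944 bp downstream of the region in mESC+, with a percentile of 88.7 in mESC+ and 60.9 in mESC-. The ATAC-seq peaks of both states around Tbx3 are plotted by distance from its start.

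**Figure D1:**
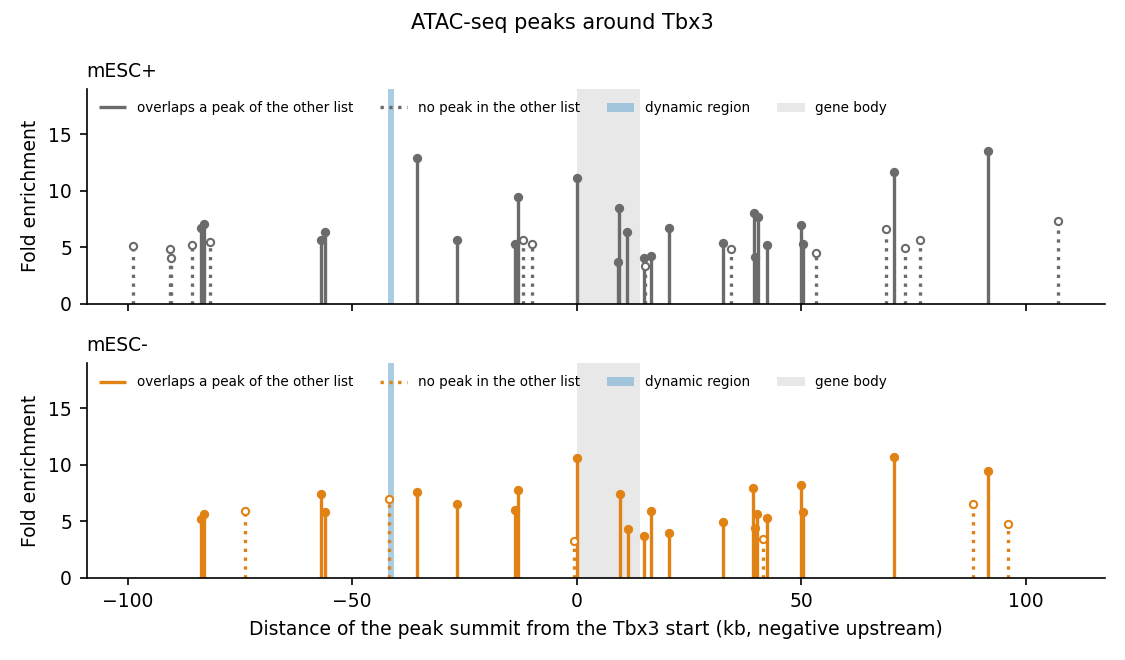
Fold enrichment of every ATAC-seq peak within 100 kb of Tbx3 in mESC+ (upper panel, gray) and mESC- (lower panel, orange), plotted against the distance of the peak summit from the Tbx3 start in kb. Open points on dotted lines are peaks without a counterpart in the other list, and the 1 peak inside the dynamic region (blue band) occurs in mESC- alone with a fold enrichment of 6.98.

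The sequence of this mESC- peak is shown because it holds an RAR direct repeat (capitals). The repeat consists of 2 copies of a 6-base site on the plus strand, 2 bases apart and without a mismatch, and it starts 17 bp downstream of the peak summit.

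Tbx3 upstream peak, chr5:119628709-119628973, plus strand: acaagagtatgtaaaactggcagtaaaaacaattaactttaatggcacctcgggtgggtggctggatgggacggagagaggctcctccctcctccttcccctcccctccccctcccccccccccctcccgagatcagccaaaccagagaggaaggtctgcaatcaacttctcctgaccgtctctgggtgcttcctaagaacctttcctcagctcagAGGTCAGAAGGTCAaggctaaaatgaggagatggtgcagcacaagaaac

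An RAR direct repeat was searched on both strands with spacers of 2 and 5 bases. Without a mismatch it occurred in 0.941% of the 300-bp windows around all mESC- summits and in 0.597% of those around all mESC+ summits. Around the 10 genes it was found in 5 of 324 mESC- windows, 2 of which were near Tbx3, and in 2 of 378 mESC+ windows. A match is a description of the letters and not evidence of binding.

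For the other 9 genes the closest dynamic regions lay far outside the 100 kb. The nearest region with the higher probability in mESC+ was 365 kb from Prdm14, in an intron of Sulf1, with probabilities of 0.794 in mESC+ and 0.009 in mESC-. The next closest was 623 kb from Tfcp2l1, with probabilities of 0.883 and 0.0156. For Klf4 the distance was 1573 kb. Esrrb, an orphan nuclear receptor, had the most remote one at 50717 kb. On the side of mESC-, the closest region after that of Tbx3 was 613 kb from Gbx2, with probabilities of 0.0291 and 0.931. The deposited list contains only dynamic regions, so it does not give the probability of enhancers that stayed the same, nor of those whose change fell short of the authors' threshold.

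**Figure D2:**
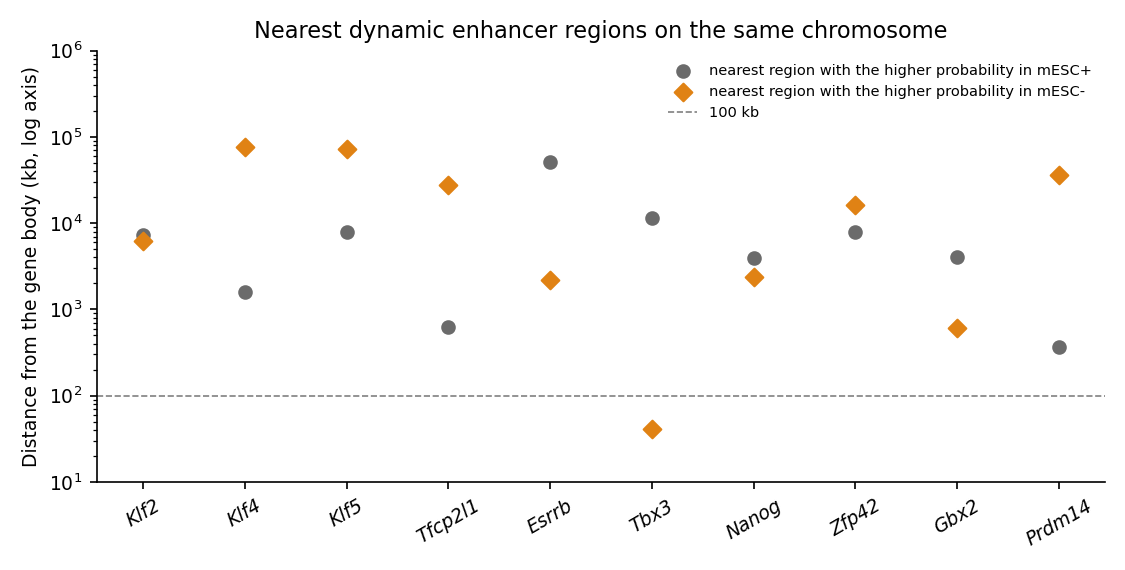
Distance in kb (log axis) from each gene body to the nearest dynamic enhancer region on the same chromosome, for regions with the higher probability in mESC+ (gray circles) and in mESC- (orange diamonds). The mESC- region of Tbx3 is the only point below the dashed line at 100 kb.

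Promoters of the factors were accessible in both states. A peak within 1 kb of the annotated start was found for 9 of 10 genes in each list, compared with 67.7% of all protein-coding genes in mESC+ and 66.4% in mESC-. The exception was Esrrb, whose annotated start at the far upstream end had no peak in either list. Esrrb had peaks at other transcript starts, a comparison added after the data were seen. The strongest of these had its summit 60488 bp downstream of the annotated start, at chr12:86421500-86421799 in mESC+ with a fold enrichment of 8.67 (68.8th percentile). Its mESC- counterpart reached 10.0 (78.5th percentile).

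Among the Kruppel-like factors, Klf5 had the strongest promoter peak of the 10 genes, with a fold enrichment of 14.9 in mESC+ and 14.6 in mESC-. Klf2 had 7.52 in mESC+ and 7.18 in mESC-. Klf4 had 2 promoter peaks in each list, and the strongest was a different one in each state. At the start itself, chr4:55532211-55532814, the fold enrichment was 5.65 in mESC+ and 5.45 in mESC-. Further upstream, at chr4:55532935-55533112, it was 4.03 in mESC+ (8.81th percentile) and 5.46 in mESC- (33.7th percentile). Tfcp2l1, a grainyhead-like factor downstream of STAT3, had 6.75 in mESC+ and 6.79 in mESC-.

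The Tbx3 promoter peak had a fold enrichment of 11.1 in mESC+ and 10.6 in mESC-. The peak of Nanog, the homeobox factor that makes self-renewal less dependent on LIF, was the weakest of the 9 by fold enrichment. It had 4.37 in mESC+ and 4.45 in mESC- (12.7th and 13.3rd percentile). Ranked by −log10 p, the same peaks stood at the 58.5th and 58.8th percentile. By fold enrichment the strongest Zfp42 promoter peak ranked higher in mESC-, with 9.72 in mESC+ (75.6th percentile) and 11.2 in mESC- (84.2nd percentile). Ranked by −log10 p, it stood at nearly the same percentile in both, 96.2 in mESC+ and 97.2 in mESC-. For Gbx2 the fold enrichment was 5.68 in mESC+ and 6.12 in mESC-. For Prdm14 it was 6.30 in mESC+ and 6.18 in mESC-. Of the 12 promoter elements present in both lists, 1 differed by at least 20 percentile points, the upstream one of Klf4. Over all shared elements, at promoters or elsewhere, 6.99% ranked at least 20 points higher in mESC- and 15.1% lower. The share over the promoters of all genes was not computed, so the count is a description only.

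**Figure D3:**
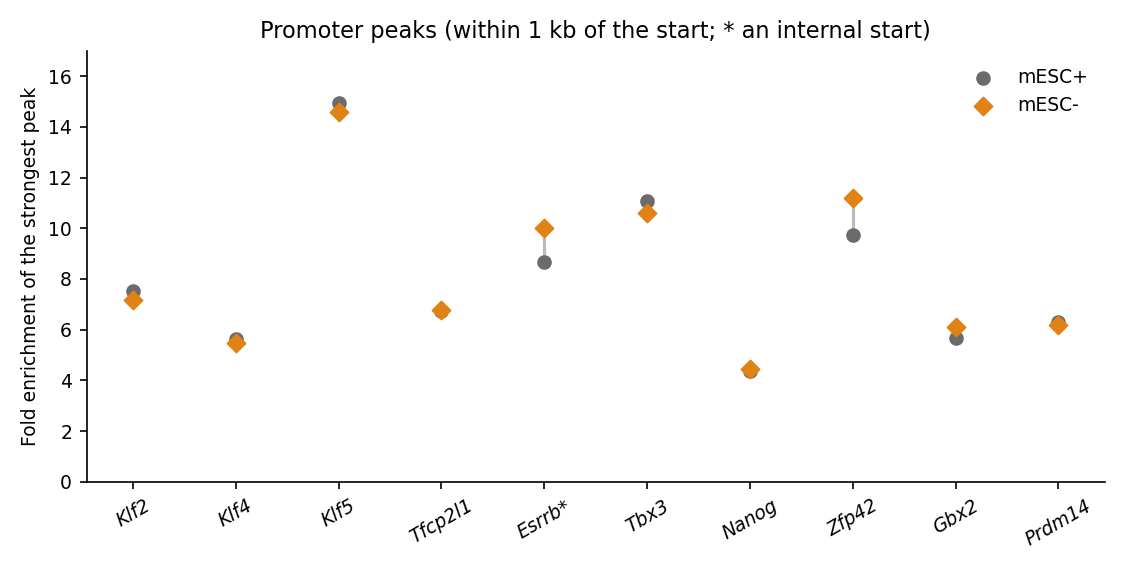
Fold enrichment of the strongest ATAC-seq peak within 1 kb of the start of each gene in mESC+ (gray circles) and mESC- (orange diamonds), with 1 library per state and therefore no error bars. For Esrrb (asterisk) the peak at an internal transcript start is shown, for Klf4 the strongest peak is a different one in each state, and the values range from 4.37 at Nanog to 14.9 at Klf5.

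RefSeq promoters (GRCm38.p6) were available for 7 of the 10 genes with 9 windows of 300 bp, and not for Klf5, Tbx3 and Prdm14. The Kruppel-like factor consensus GGGNGNGGC, searched on both strands, occurred in 5 of the 9 windows (Klf2, Klf4, Tfcp2l1, Esrrb and Zfp42) and in 25.8% of all 32851 RefSeq promoters. This consensus is GC-rich, and so were the 9 windows. Their GC content ranged from 54.3% (Nanog) to 74.3% (Klf4), above the median of 52.7% over all RefSeq promoters. The share of the matches that GC content explains was not tested. The Esrrb match, GGGGGGGGC, lay at the annotated start that had no peak. Nanog was the 1 gene with an Oct4-Sox2 composite element (at most 2 mismatches), which was present in 0.122% of all promoters. Zfp42 held the octamer ATGCNAAT, found in 3.15% of all promoters. No RAR direct repeat with at most 1 mismatch was found in these windows, while 3.98% of all promoters had one. The estrogen-related receptor consensus TCAAGGTCA, the STAT consensus TTCCNGGAA and the T-box consensus AGGTGTGA were not present in them either.

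The 250 bases upstream of the RefSeq start are shown for 4 factors in the direction of transcription. Capitals mark Kruppel-like factor matches in Klf2 and Klf4, the composite element in Nanog, and the octamer followed by a Kruppel-like factor match in Zfp42. The Nanog element at chr6:122707413-122707427 lies inside the promoter peaks of both states.

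Klf2, chr8:72318812-72319061, plus strand: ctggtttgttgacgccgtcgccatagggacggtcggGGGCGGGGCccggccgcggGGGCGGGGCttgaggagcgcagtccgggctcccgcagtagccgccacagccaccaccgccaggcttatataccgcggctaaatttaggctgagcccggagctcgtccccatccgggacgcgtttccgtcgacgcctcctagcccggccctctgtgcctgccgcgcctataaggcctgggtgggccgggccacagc
Klf4, chr4:55532476-55532725, minus strand: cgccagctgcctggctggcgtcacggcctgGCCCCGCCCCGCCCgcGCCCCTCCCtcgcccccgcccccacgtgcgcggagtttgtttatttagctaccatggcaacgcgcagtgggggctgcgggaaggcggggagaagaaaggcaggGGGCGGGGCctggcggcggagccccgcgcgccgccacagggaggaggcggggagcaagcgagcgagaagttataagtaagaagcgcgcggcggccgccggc
Nanog, chr6:122707239-122707488, plus strand: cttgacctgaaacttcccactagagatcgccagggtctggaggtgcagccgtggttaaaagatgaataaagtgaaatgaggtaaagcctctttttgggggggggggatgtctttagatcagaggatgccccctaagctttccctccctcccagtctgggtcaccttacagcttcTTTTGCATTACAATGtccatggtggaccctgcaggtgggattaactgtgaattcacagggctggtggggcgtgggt
Zfp42, chr8:43307010-43307259, minus strand: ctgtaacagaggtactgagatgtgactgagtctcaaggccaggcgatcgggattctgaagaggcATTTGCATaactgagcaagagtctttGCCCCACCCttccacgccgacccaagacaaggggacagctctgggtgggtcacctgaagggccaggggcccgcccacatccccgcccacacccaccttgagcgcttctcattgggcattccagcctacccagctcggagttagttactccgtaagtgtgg

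Counting all peaks within 100 kb, the 10 genes had 378 peaks in mESC+ and 324 in mESC-. In mESC+, 97 of these (25.7%, 95% Clopper-Pearson interval 21.3 to 30.4) did not overlap any mESC- peak, compared with 26.1% of the whole list. In mESC-, 41 peaks (12.7%, 9.24 to 16.8) did not overlap any mESC+ peak, compared with 14.1% of the whole list. Both shares near the factors were therefore close to the background, and the intervals cover counting error only. Peaks without a counterpart were weak. Their median fold enrichment was 4.52 in mESC+ and 4.71 in mESC-, whereas peaks with a counterpart had medians of 6.30 and 6.11.

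The number of peaks was higher in mESC+ or equal at each gene, as it was over the entire lists. Nanog had the most peaks with 58 in mESC+ and 49 in mESC-, although its 100-kb window also takes in Dppa3, Gdf3 and Slc2a3. Klf4, which has no other protein-coding gene within the window, had the fewest with 18 in mESC+ and 15 in mESC-, and 0 of the latter were specific to mESC-. At Esrrb 18 of 52 mESC+ peaks had no counterpart, and 5 of 40 mESC- peaks. Tbx3 had 14 of 38 mESC+ peaks without a counterpart and 6 of 29 mESC- peaks. At Klf5 the numbers were 13 of 37 and 4 of 28.

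The remaining genes had smaller differences between the states. Klf2, whose window takes in 4 other protein-coding genes, had 9 of 36 mESC+ peaks without a counterpart and 7 of 34 mESC- peaks. Tfcp2l1 had 7 of 34 and 6 of 33. Zfp42 had 8 of 34 mESC+ peaks and 3 of 28 mESC- peaks without a counterpart. For Gbx2 there were 6 of 33 and 2 of 30, and at Prdm14 the lists were of equal length with 5 of 38 and 4 of 38.

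**Figure D4:**
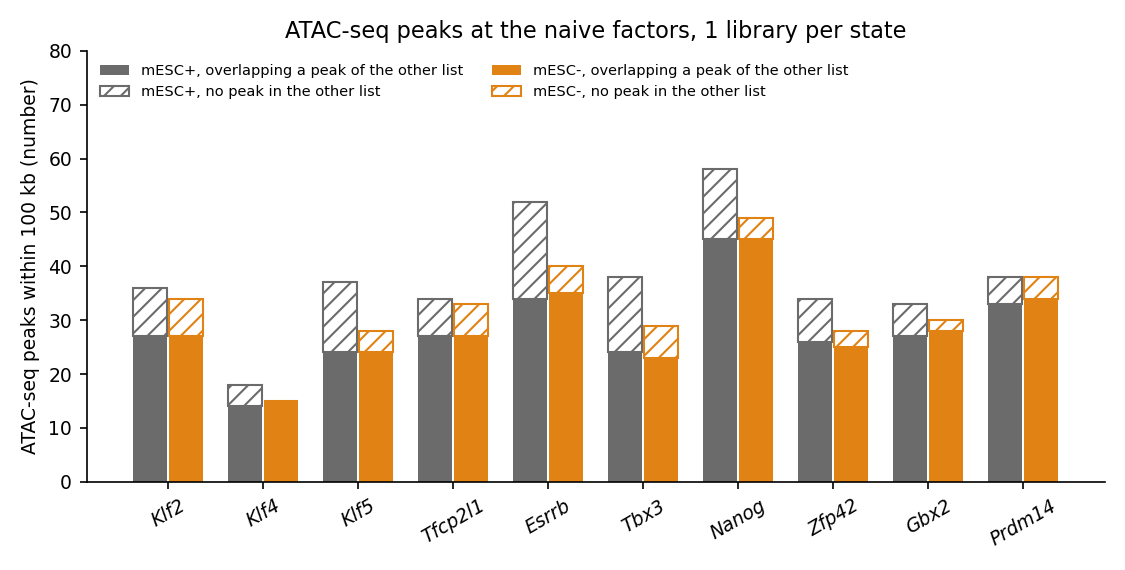
Number of ATAC-seq peaks within 100 kb of each gene in mESC+ (gray) and mESC- (orange), where filled bars are peaks that overlap a peak of the other list and hatched bars are peaks that do not. Nanog has the most peaks (58 and 49) and Klf4 the fewest (18 and 15).

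The strongest mESC+ peaks without a counterpart lay at Klf4, Esrrb and Klf5. The Klf4 peak at chr4:55501001-55501181, 31.4 kb downstream of the start, had a fold enrichment of 10.7 (80.2nd percentile) and was outside annotated genes. The Esrrb peak at chr12:86451015-86451197 was intronic and had 8.89 (69.9th percentile). The Klf5 peak at chr14:99355583-99355826, 57.0 kb downstream of the start, had 7.96 (63.9th percentile). In mESC- the strongest ones after the Tbx3 region were at chr8:43261105-43261230 near Zfp42, with 6.70, and at chr5:119758954-119759100 in the Tbx3 window but closest to the start of Tbx5, with 6.52. The Klf4 peak is printed because its fold enrichment was the highest of all peaks without a counterpart near the factors, and no searched motif was found in it.

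Klf4 downstream peak, chr4:55501001-55501181, plus strand: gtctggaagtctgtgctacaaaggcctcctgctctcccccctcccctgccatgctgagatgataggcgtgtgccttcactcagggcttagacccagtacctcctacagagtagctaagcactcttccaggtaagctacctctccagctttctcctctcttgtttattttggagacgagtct

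Overlapping peaks of both lists formed 277 shared elements near the 10 genes, whose percentiles could be set side by side. The median change from mESC+ to mESC- was -1.76 percentile points, compared with -2.49 over all 117520 shared elements. An element was counted as moved if its percentile differed by at least 20 points. By this measure 21 of 277 elements (7.58%) ranked higher in mESC-, with 6.99% over all shared elements. In the opposite direction 36 elements (13.0%) ranked lower in mESC-, with 15.1% over all.

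The genes differed in their medians, without a test. Prdm14 had the lowest median change with -5.24 points, and 8 of its 33 elements ranked at least 20 points lower in mESC- while 1 ranked higher. Tbx3 followed with a median of -5.08, with 5 of 23 elements lower and 2 higher. At Gbx2 the median was -4.01, with 3 of 27 elements in each direction. Klf2 had a median of -3.45, with 5 of 27 elements lower and 0 higher. Its window also takes in Ap1m1, Eps15l1, Fam32a and Gm10282. Klf2 has the nearest protein-coding start for only 11 of the 36 mESC+ peaks and 9 of the 34 mESC- peaks there. The medians of Nanog (-1.71) and Tfcp2l1 (-0.60) were above that of all shared elements. Esrrb had the highest median change at 1.03, with 5 of 34 elements higher and 3 lower, and was followed by Klf4 at 0.83, Zfp42 at 0.38 and Klf5 at 0.28.

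**Figure D5:**
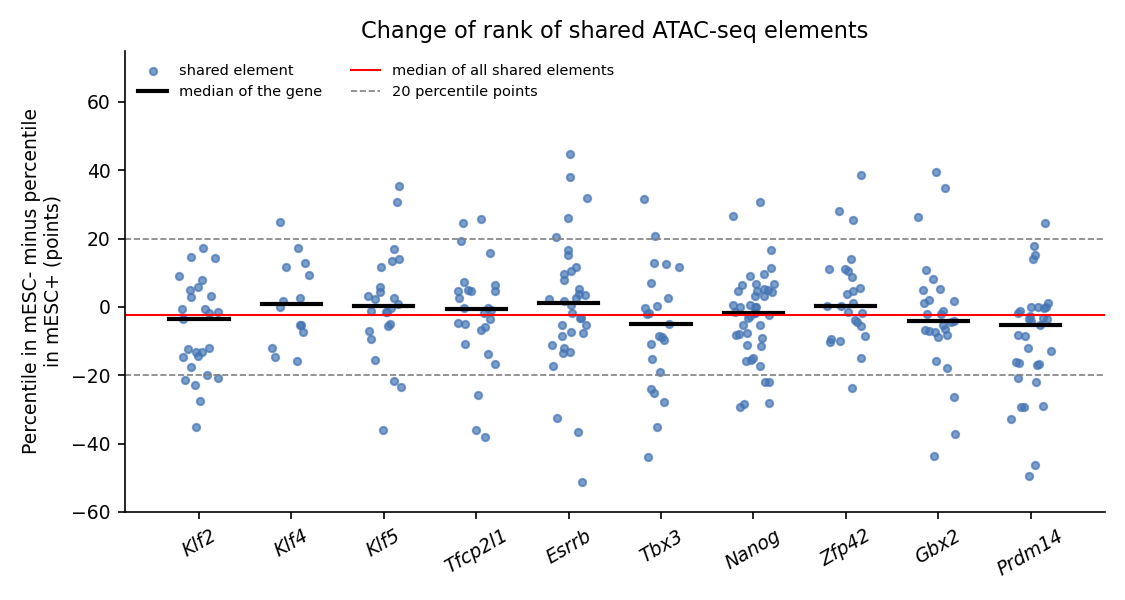
Difference in percentile (mESC- minus mESC+, in points) of each shared ATAC-seq element within 100 kb of the 10 genes (blue points), with the median per gene (black bar), the median of all shared elements (red line, -2.49) and the limits of 20 points (dashed lines). Prdm14 has the lowest median (-5.24) and Esrrb the highest (1.03).

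Single elements moved further than the medians. The largest increase in rank was at chr12:86320777-86320935, 40.3 kb upstream of Esrrb, from the 26.3rd percentile in mESC+ to the 71.1st in mESC-. It was followed by chr1:89901505-89901654, 29.6 kb downstream of the Gbx2 start, with 36.3 and 75.7. The third was chr8:43346473-43346664, 39.6 kb upstream of Zfp42, with 44.8 and 83.4. All of these lay outside annotated genes. The largest decrease was at chr12:86614247-86614435 in the Esrrb window, closest to the start of Vash1, from 81.3 to 30.1. At Prdm14, chr1:13018486-13018765, closest to the start of Slco5a1, went from 63.8 to 14.3. An exonic element of Prdm14, chr1:13125502-13125870, went from 53.7 to 7.41.

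Of these elements, the Zfp42 one and the Prdm14 one near Slco5a1 are printed because they ranked differently in opposite directions and each holds a motif match. The Zfp42 element holds an RAR direct repeat with a spacer of 5 bases and 1 mismatch (capitals), on the minus strand. The Prdm14 element holds an octamer (capitals). The Esrrb element that ranked lower in mESC- also held an RAR direct repeat with a mismatch, so matches of this kind were found in both directions. No searched motif was found in the Esrrb and Gbx2 elements that ranked higher in mESC-, or in the exonic Prdm14 element.

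Zfp42 upstream element, chr8:43346473-43346664, plus strand: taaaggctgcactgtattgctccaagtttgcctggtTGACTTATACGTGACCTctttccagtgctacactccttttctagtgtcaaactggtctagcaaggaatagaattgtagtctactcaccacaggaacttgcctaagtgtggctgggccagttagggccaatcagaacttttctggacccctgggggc
Prdm14 element, chr1:13018486-13018765, plus strand: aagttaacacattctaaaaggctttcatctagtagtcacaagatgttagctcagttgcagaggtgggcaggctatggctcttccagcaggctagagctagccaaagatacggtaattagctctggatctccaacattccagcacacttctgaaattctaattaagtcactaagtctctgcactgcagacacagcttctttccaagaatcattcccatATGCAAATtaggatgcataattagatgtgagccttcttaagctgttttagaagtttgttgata

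The 2 shared elements with the highest fold enrichment at each gene were taken in each state separately. Of the 20 elements chosen in mESC+, 2 differed by at least 20 percentile points, both with the lower rank in mESC-, and of the 20 chosen in mESC- there were 0. Since the elements were chosen by these values, the counts are a description only. All elements chosen in mESC+ stood at the 85.6th percentile or higher there, so only a lower rank in mESC- could reach 20 points. Those chosen in mESC- stood at the 81.0th percentile or higher there, so only a higher rank in mESC- could. Over all shared elements, strong and weak, 15.1% ranked lower in mESC- and 6.99% higher. The 2 elements that differed were an intronic one of Prdm14, chr1:13117841-13118007, at the 97.9th percentile in mESC+ and 76.9 in mESC-, and chr5:119634939-119635138 next to the dynamic region of Tbx3, at 88.7 and 60.9. At Klf4, the strongest element in mESC+ was chr4:55451110-55451300, 81.3 kb downstream of the start, with 94.1 in mESC+ and 82.1 in mESC-. In mESC- it was chr4:55514722-55515300, 17.5 kb downstream, with 92.2 in both states. Klf2, Klf5, Tfcp2l1, Esrrb, Nanog and Zfp42 had the same strongest element in both states. At Klf5, chr14:99219948-99220205 in an intron of Pibf1, 78.6 kb upstream, stood at the 99.2nd percentile in mESC+ and at the 99.0th in mESC-. For Esrrb it was intronic, chr12:86433337-86433774, with 93.7 in mESC+ and 96.1 in mESC-. For Nanog it was chr6:122779903-122780302 in an intron of Slc2a3, with 87.2 in mESC+ and 94.0 in mESC-.

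Motif content was compared over all windows of 300 bp around peak summits. An RAR direct repeat with at most 1 mismatch was found in 8.47% of mESC+ windows near the 10 genes (5.59% over all mESC+ peaks) and in 11.1% of mESC- windows (6.37% over all). When mESC- peaks were limited to −log10 q values of 10 or more, the share was 5.84% near the genes (8 of 137 windows) and 5.89% over all, so no excess was seen among strong mESC- peaks. In mESC+ the same limit gave 7.60% near the genes (13 of 171 windows) and 5.09% over all. The estrogen-related receptor consensus, which Esrrb recognizes, was found in 2.65% of mESC+ windows (1.21% over all) and in 3.40% of mESC- windows (1.40% over all). At the same −log10 q limit its shares were 2.92% in mESC+ (1.07% over all) and 3.65% in mESC- (1.22% over all), with 5 windows in each list. This consensus ends in the hexamer AGGTCA, which is also one arm of the RAR repeats, so a single stretch can count for both. The octamer was present in 6.35% of mESC+ windows (5.25% over all) and in 7.41% of mESC- windows (5.46% over all). The Kruppel-like factor consensus stood at 17.2% and 16.4%, compared with 18.5% and 18.1% over all peaks. STAT, T-box and composite matches were rare, with between 1 and 6 windows per list. In mESC+ the STAT consensus was found in 1.59% of windows (1.19% over all), the T-box consensus in 1.32% (1.47%) and the composite element in 0.265% (0.406%). In mESC- the shares were 1.23% (1.09%), 0.926% (1.34%) and 0.309% (0.433%). Windows of 1 gene share a locus and were not tested.

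The same measures were taken for genes that work with the factors. Of 16 partners of the naive network, 1 had a region with the higher probability in mESC+ within 100 kb, namely Sox2, at chr3:34654501-34655400 with 0.883 in mESC+ and 0 in mESC-. Another 1, Sall4, had a region with the higher probability in mESC-, with 0 in mESC+ and 0.941 in mESC-. Neither list had a peak in the Sox2 region, whereas the Sall4 region held 1 peak in mESC+ and 3 in mESC-. Of 10 formative and primed genes, 0 had a region with the higher probability in mESC+ and 2 had one higher in mESC-. These were the DNA methyltransferase genes Dnmt3a (0.093 in mESC+, 0.921 in mESC-) and Dnmt3b (0.0075 in mESC+, 1 in mESC-). The Dnmt3a region was intronic but closest to the start of Pomc, and the Dnmt3b region was closest to the start of Commd7. Neither list had a peak in the Dnmt3a region either, while the Dnmt3b region held 1 peak in mESC+ and 2 in mESC-. Over all protein-coding genes, 2.11% had a region higher in mESC+ and 2.56% had one higher in mESC-. Lists of 16 and 10 genes are too short to set against these shares. Promoter peaks were found for 14 of 16 partners in mESC+ and 12 of 16 in mESC-. Over all protein-coding genes the shares were 67.7% and 66.4%. The difference between the states among the partners came from Tcl1 and Dppa3. Their mESC+ peaks were among the weakest of the list, at the 3.88th and 1.23rd percentile. Near the partners 26.7% of mESC+ peaks and 13.0% of mESC- peaks had no counterpart. Near the formative and primed genes the shares were 26.0% and 9.12%. Over all peaks they were 26.1% and 14.1%, as given above for the factors.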

How the data were processed

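RNA-seq (3 libraries per state), ATAC-seq (1 per state) and ChIP-seq (8 of 18 libraries enter CRUP) of E14 cells were used as deposited. RNA-seq reads were mapped to GRCm38 with BWA-MEM per the study's methods, which name STAR for ChIP-seq (2.5.1b in the submitters' processing notes, with no assay named). The table of DESeq2 results deposited by the authors holds 1 mean normalized count signal per gene over 6 libraries. Its fold changes, errors, statistics and p-values are the authors' own comparisons and were not used, likewise the p-value and cluster of the dynamic regions. Dynamic regions carry per state an enhancer probability, a fraction that the authors predicted with CRUP. For ATAC-seq, reads were aligned to GRCm38 with BWA-MEM, and MACS2 was run by the authors on either library, its settings being not given in the sources used here. Each deposited peak has a −log10 p, a −log10 q and a ratio to background (fold enrichment).

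A peak or region belonged to a gene if it lay within 100 kb of its body (GENCODE annotation of GRCm38.p6). Peaks of both lists that overlap by at least 1 bp were joined to shared elements, and percentiles refer to fold enrichment within a list. Mean counts were divided by exon length. Motifs were searched as consensus sequences on both strands in 300-bp windows. Named peaks are the strongest promoter peak per gene and list, every dynamic region, the 3 largest rises and falls of percentile, and the 3 strongest peaks without a counterpart per list. The 2 strongest elements per gene and state, the promoter elements matched between lists and the motif-bearing sequences were added after their values were seen. The 10 genes and all lists were chosen with earlier results of these data known. No comparison between states could be tested. Shares have 95% Clopper-Pearson intervals, which cover counting error only; a share of 0 has 3 counts of the total as its limit. Functions were tested on simulated data. Python 3.11.15, pandas 2.3.3, SciPy 1.17.1 and pysam 0.24.0 were used.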

Additional observations from a re-analysis of the deposited data

How the results depend on the processing

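The share of peaks without a counterpart and some motif shares in mESC- depended on the processing. With peaks of −log10 q of at least 10 the former dropped to 2.92% of 171 peaks in mESC+ and 0% of 137 in mESC- (3.17% and 0.711% over all such peaks). With the 50000 peaks of highest −log10 p it was 1.79% and 0% (0.414% and 0.29% over all). Weak peaks are left out by construction in both settings, and a count of 0 allows (3 counts of the total) a share of up to 2.19% of 137 peaks and 2.75% of 109. In mESC-, the share of windows with an RAR direct repeat was 5.84% at −log10 q of at least 10 (5.89% over all such peaks). That with a STAT match was 0.309% in whole peaks (0.888% over all) and 0% at −log10 q of at least 10 (1.12% over all). The cause of the changes in motif shares was not tested. All other alternatives, which were a distance of 50 kb or 100 kb from the start, an overlap of one peak by at least 50%, ranks by −log10 p and a promoter window of 250 bp, kept shares within their interval, counts within 1.5 times and the median change within the spread over genes. The same held for the assignment to the nearest protein-coding start and for any transcript start, which were chosen after seeing the data. No paired analysis was possible because only 1 mean over all RNA-seq libraries was used. For the same reason, and with 1 ATAC-seq library per state, no library could be left out.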
